A study of Mus musculus with 8 samples.

Results

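The 10 genes described here, of ferritin storage, iron import, iron export, haem breakdown and iron regulation, were measured in microglia, the resident macrophages of the brain, in the hypothalamus of young mice. The 10 genes were chosen by name (Fth1, Ftl1, Tfrc, Slc40a1, Slc11a1, Slc11a2, Hmox1, Aco1, Ireb2 and Ncoa4), and each had 1 row among the 35583 genes of the deposited tables. Dye-labelled plasma protein had been injected into the mice, and 20 hours later microglia were sorted into plasma-positive cells, which carried the label, and plasma-negative cells, which did not. Both groups came from mice labelled wild-type, both had received the injection, and each group had 4 RNA sequencing libraries. The labels give no dose, no sex, no exact age and no statement on whether a library holds 1 animal or several, and no group without an injection was analysed here. The comparison asks whether microglia that had taken up plasma protein differed in these transcripts from microglia of the same region that had not.

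Iron enters cells bound to transferrin through the transferrin receptor and is released in acidic endosomes, and macrophages also gain iron from haem and from swallowed protein. Inside the cell, iron is stored in ferritin, a hollow shell of heavy and light chains, and it leaves through ferroportin, the only known cellular iron exporter. When iron is scarce, iron regulatory proteins 1 and 2 bind hairpins called iron-responsive elements in messenger RNAs, which blocks translation where the hairpin lies in the 5′ untranslated region and protects the RNA from decay where it lies in the 3′ untranslated region. Microglia are among the ferritin-rich cells of the brain.

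The hairpin letters divide the genes by this mode of control, and they are shown for the genes in which they were found. The search was for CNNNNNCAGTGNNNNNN, on the transcript strand only, with all 5 bases before the 6-base loop CAGTGN able to pair with the 5 after it (G with T allowed), in the untranslated regions of protein-coding transcripts in GENCODE M21 (build GRCm38). Of genes with a 5′ untranslated region 0.148% (31 of 20900) held a match there, and of genes with a 3′ untranslated region 0.595% (129 of 21681). Among the 10 genes, Fth1, Ftl1 and Slc40a1 matched in the 5′ region and Tfrc in the 3′ region. Each line gives 29 bases of the transcript, 5′ to 3′, with the 6-base loop in capitals.
Fth1, 5′ region, chr19:9982732-9982760, plus strand: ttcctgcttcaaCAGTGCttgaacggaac
Ftl1, 5′ region, chr7:45459779-45459807, minus strand: gtcttgcttcaaCAGTGTttgaacggaac
Slc40a1, 5′ region, chr1:45925465-45925493, minus strand: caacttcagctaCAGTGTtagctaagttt
Tfrc, 3′ region, chr16:32631219-32631247, plus strand: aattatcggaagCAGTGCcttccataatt
Tfrc, 3′ region, chr16:32631598-32631626, plus strand: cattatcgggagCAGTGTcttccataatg
Tfrc, 3′ region, chr16:32631663-32631691, plus strand: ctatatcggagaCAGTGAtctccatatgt
Tfrc, 3′ region, chr16:32631710-32631738, plus strand: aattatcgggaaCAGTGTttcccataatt
Each of the 3 genes with a 5′ match carried 1 copy, and Tfrc carried 4. Slc11a2, known for an iron-responsive element in some of its transcripts, had no match with all 5 pairs in the regions searched. Whether the letters occur there without full pairing was not recorded.

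Library totals ranged from 2963094 to 21422738 gene counts, and their group means differed by 0.31 on the log2 scale, within the spread of the libraries (two-sided exact permutation test over the 70 assignments, p = 0.8). Levels of 10 microglial markers, Cx3cr1, P2ry12 and Tmem119 among them, were summed in normalised counts (CPM, counts scaled to a common library size). In plasma-negative replicates 1 to 4 the sums were 63359, 64876, 63717 and 75325 CPM (median 64297). In plasma-positive replicates 1 to 4 they were 75346, 69869, 74185 and 73850 CPM (median 74018). Only plasma-negative replicate 4 lay within the plasma-positive range. Csf1r was the 1 of the 10 markers called higher, where 0.844% of all tested genes were. Of 9 border macrophage genes, Cd163, Lyve1, F13a1 and Clec10a had 0 counts in all 8 libraries, and the 9 summed to between 180 and 267 CPM. Of 8 red cell genes in the table, Hbb-bt and Slc4a1 were among those with 0 counts in every library, and the sum was at most 19 CPM. Plasma-positive replicate 3 stood apart in 10 monocyte and neutrophil genes, with 1012 CPM in sum against at most 18.9 CPM in the other libraries. Plasma-positive replicate 2 was highest in 10 oligodendrocyte genes (564 CPM) and 10 neuronal genes (319 CPM). Plasma-negative replicate 4 had the smallest total.

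Both ferritin chains were higher in plasma-positive microglia, and they were the only genes of the 10 to pass the test (2 of 10, against 1.41% of all 13277 tested genes, and against 0.844% in the higher direction). None of the 10 was called lower, where 0.565% of all tested genes were. The test was edgeR's quasi-likelihood test with Benjamini-Hochberg adjustment over all tested genes, with the call set at an adjusted p under 0.05. All 10 genes passed the filter on low counts. At an unadjusted p under 0.05 there were 4 of the 10 with higher and 1 with lower estimates, against 13.8% of all tested genes in either direction. The median log2 change of the 10 was 0.17, against 0.01 over all tested genes. Fewer cells of a type and less RNA per cell cannot be told apart in bulk libraries. The split of calls over all genes, 112 higher and 75 lower, was 64 higher and 163 lower when libraries were scaled by their totals only.

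**Figure D1:**
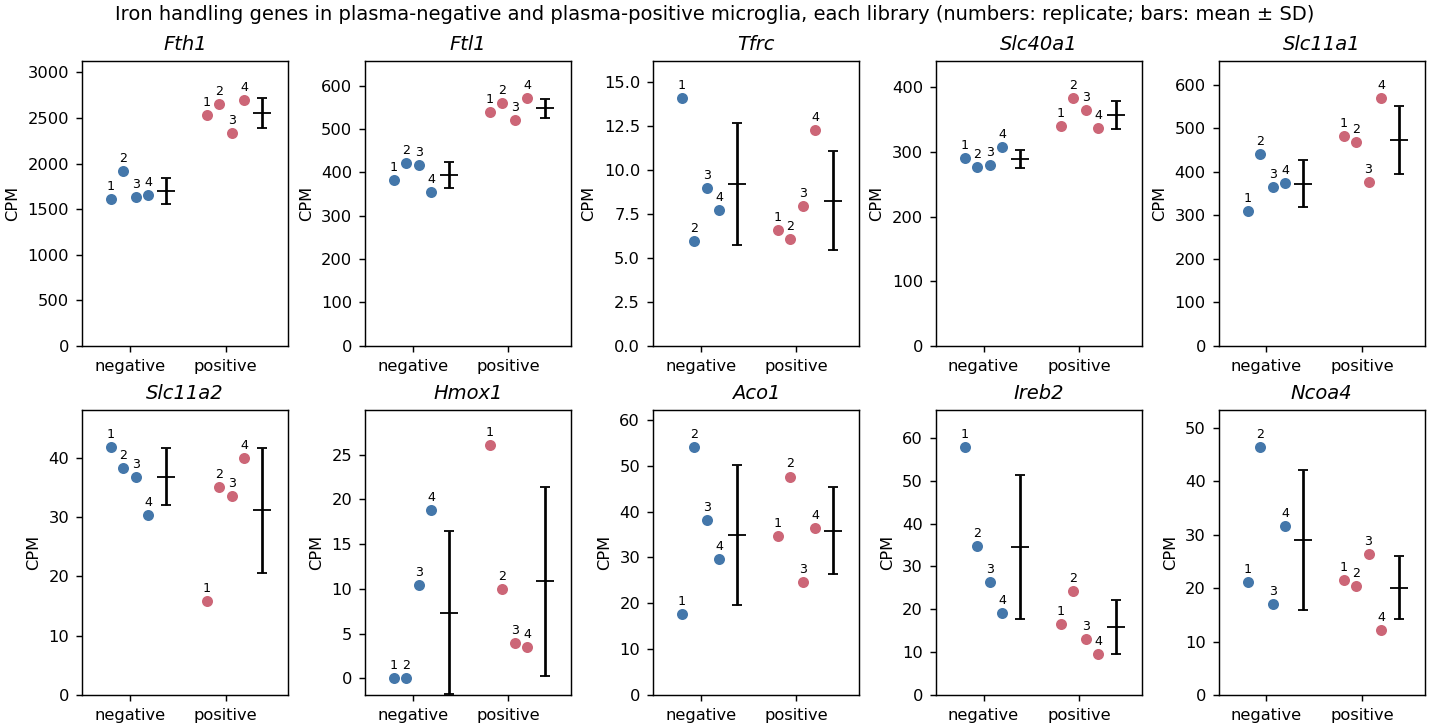
Level of each gene in CPM (vertical axis, a separate scale per panel) in the 4 plasma-negative (blue) and 4 plasma-positive (red) libraries, with replicate numbers above the points and the mean ± SD as bars. Fth1, Ftl1 and Slc40a1 show no overlap between groups, Hmox1 is near 0 in plasma-negative replicates 1 and 2, and in the other panels the groups overlap.

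Fth1 (ENSMUSG00000024661, chromosome 19, 9980598 to 9985098 in build mm10) encodes the ferritin heavy chain, whose ferroxidase centre oxidises iron for storage. It stood at 1616, 1916, 1628 and 1651 CPM in plasma-negative replicates 1 to 4, and at 2531, 2659, 2334 and 2693 CPM in plasma-positive replicates 1 to 4. The lowest plasma-positive library thus lay above the highest plasma-negative one, and the lowest of the plasma-positive values was replicate 3, the library with the neutrophil genes. Means were 1703 ± 143 and 2554 ± 163 CPM (SD, n = 4). The log2 change was 0.58 ± 0.07 (SE), or 1.5-fold (edgeR, adjusted p = 0.00427). Leaving out any 1 library left the change between 0.56 and 0.65 and the adjusted p between 0.00597 and 0.021. Reads counted for Fth1 numbered 4906 in the shallowest library and 52297 in the deepest one for this gene. No other gene of the table shared at least 90% identity over 200 bases with its longest coding transcript.

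Ftl1 (ENSMUSG00000050708, chromosome 7, 45457944 to 45459884) encodes the light chain, which lacks that enzyme centre and helps the iron core to form. Its levels were 383, 421, 416 and 356 CPM in plasma-negative replicates 1 to 4 and 539, 561, 521 and 571 CPM in plasma-positive replicates 1 to 4. As for Fth1, the groups did not overlap and the lowest plasma-positive value was that of replicate 3. The means were 394 ± 30.6 and 548 ± 22.3 CPM (SD, n = 4). The log2 change was 0.47 ± 0.09 (SE), or 1.39-fold (edgeR, adjusted p = 0.0246).

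The call on Ftl1 depended on the setting. It ended with library totals only (0.36, edgeR, adjusted p = 0.0802) and with the replicate number fitted as a block (0.48, edgeR, adjusted p = 0.075). With each library left out in turn it passed 2 of 8 times, with adjusted p between 0.0383 and 0.0788 (edgeR) and changes between 0.43 and 0.51. Exons of other genes covered 34.6% of its exon length, most of it by Gm10252 on the other strand, which had a log2 change of 0.60 (edgeR, adjusted p = 0.0987). Gm10252 is identical to Ftl1 over 356 bases and held 13469 counts in all libraries together, against 54861 for Ftl1. Ftl1-ps1, 99.6% identical to Ftl1 over 910 bases, was listed with 58 counts, and how reads that fit Ftl1 and either of these genes were assigned is not given in the sources used here. The level of Ftl1, and its ratio to Fth1 given below, are therefore uncertain.

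Both ferritin changes were smaller after a correction of each library for exon length and GC content. With it the change of Fth1 was 0.44 (edgeR, adjusted p = 0.0426) and that of Ftl1 was 0.20 (edgeR, adjusted p = 0.448), so that the call on Ftl1 ended. With the correction and the replicate block together the call on Fth1 ended too (0.44, edgeR, adjusted p = 0.0883). Oligodendrocyte markers, from cells that also hold much ferritin, had summed levels from 163 to 230 CPM in plasma-negative and from 224 to 564 CPM in plasma-positive libraries and 1 of 7 tested members called higher (0.844% of all tested genes). Without plasma-positive replicate 2, the highest in those markers, the log2 estimates were 0.57 for Fth1 (edgeR, adjusted p = 0.0166) and 0.47 for Ftl1 (edgeR, adjusted p = 0.0788). The part of these cells in the ferritin difference was not tested.

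**Figure D2:**
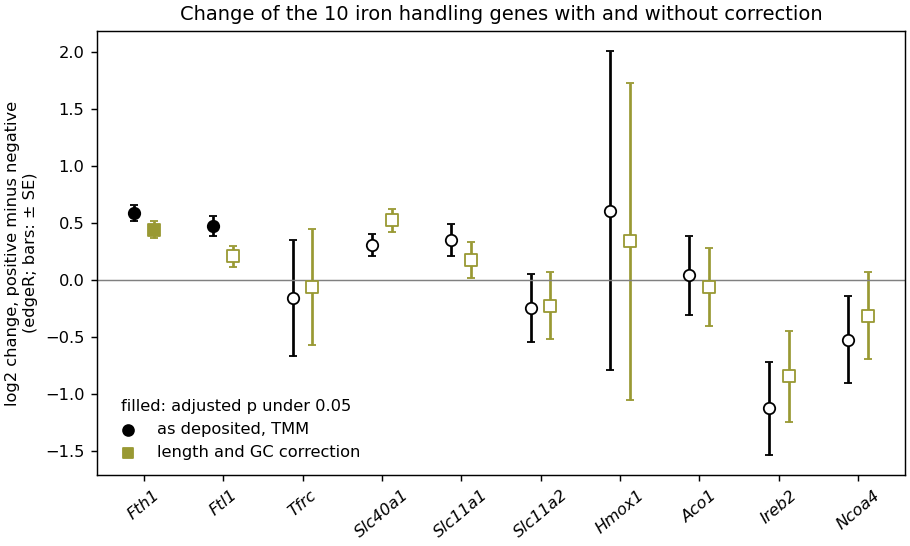
Log2 change of each gene, plasma-positive minus plasma-negative, by edgeR without (circles) and with (squares) a correction for exon length and GC content, with bars of ± 1 SE. Filled symbols have an adjusted p under 0.05. Fth1 is filled in both, Ftl1 only without the correction, and the bars of Hmox1 span 0 widely.

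The share of all tested genes called higher changed with the setting and gives the background for counts of the 10 genes called higher under each. It was 0.678% with relative log expression factors, 1.06% with upper quartile factors, 0.482% with library totals only, 0.524% without a filter on low counts, 1.1% with a mean count of at least 50 and 1.17% after thinning to the smallest total. It was 2.61% by DESeq2, 1.12% by limma-voom, 2.92% and 2.79% by limma on log2(RPKM + 1) and log2(RPKM + 0.1), 0.392% with the replicate block, 0.226% with the length and GC correction and 0.0377% with both. DESeq2 called 3 of the 10 genes, and the correction with the block called 0 of them. Without plasma-negative replicates 1 to 4 in turn the share was 0.394%, 0.388%, 0.334% and 0.901%, and without plasma-positive replicates 1 to 4 it was 0.333%, 0.344%, 0.434% and 0.295%.

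Fth1 and Ftl1 together took 0.211%, 0.244%, 0.215% and 0.201% of gene counts in plasma-negative replicates 1 to 4. In plasma-positive replicates 1 to 4 the shares were 0.292%, 0.313%, 0.274% and 0.31%. All 4 plasma-positive shares exceeded all 4 plasma-negative ones. The difference of the means was 0.0794 percentage points (0.218 ± 0.018 and 0.297 ± 0.018, SD, n = 4).

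The ratio of heavy to light chain transcripts overlapped between the groups. On the RPKM scale (reads scaled by exon length and library size), which allows genes of different length to be compared, the ratio of Fth1 to Ftl1 was 1.63, 1.76, 1.51 and 1.79 in plasma-negative replicates 1 to 4. In plasma-positive replicates 1 to 4 it was 1.81, 1.83, 1.73 and 1.82. Plasma-positive replicate 3 lay below plasma-negative replicates 2 and 4. The mean log2 ratio differed by 0.11. The size of the ratio depends on the length used, because the authors' scaling corresponds to 3469 bases of merged exons for Fth1, retained introns included, whereas the main transcript Fth1-201 has 929 bases and Ftl1-201 has 968. With those transcript lengths the mean ratio was 4.51 ± 0.35 and 4.85 ± 0.13 (SD, n = 4).

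**Figure D3:**
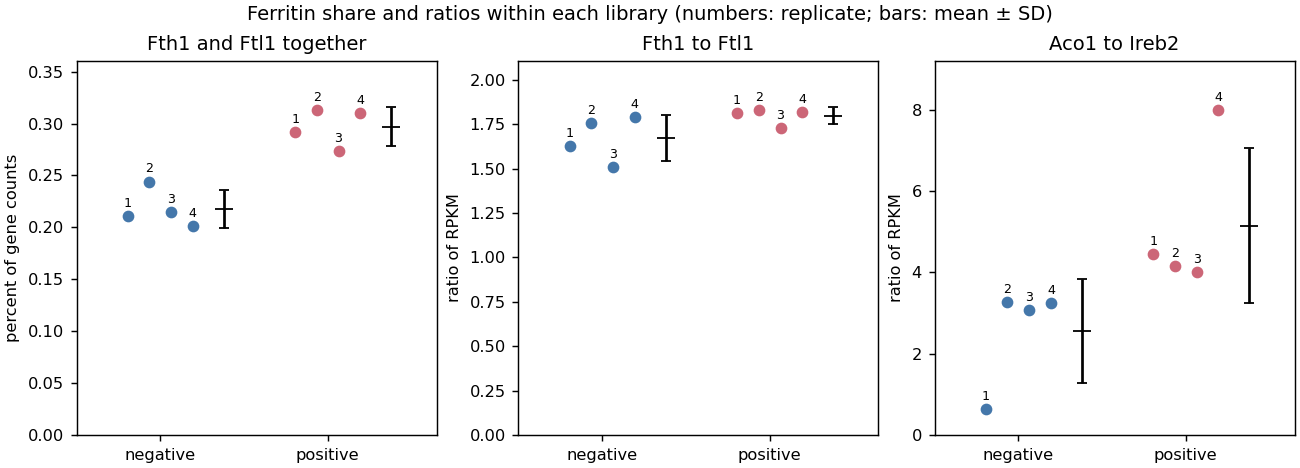
Share of gene counts on Fth1 and Ftl1 (left, percent), ratio of Fth1 to Ftl1 (middle, RPKM) and ratio of Aco1 to Ireb2 (right, RPKM) in each library, with replicate numbers and the mean ± SD. The ferritin share separates the groups, the ratio of the chains overlaps, and plasma-negative replicate 1 and plasma-positive replicate 4 lie far from their groups in the right panel.

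Ncoa4 (ENSMUSG00000056234, chromosome 14, 32159865 to 32179855) encodes the cargo receptor that carries ferritin to the lysosome, where its iron is freed. It was found at 21.2, 46.4, 16.9 and 31.6 CPM in plasma-negative replicates 1 to 4, and at 21.5, 20.4, 26.3 and 12.2 CPM in plasma-positive ones. The groups overlapped, with the highest value in plasma-negative replicate 2. The log2 change of -0.53 had an SE of 0.38 (edgeR, adjusted p = 0.608), and the change was -0.31 with the length and GC correction, so no difference could be shown at this spread.

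Slc40a1 (ENSMUSG00000025993, chromosome 1, 45908068 to 45926523) encodes ferroportin and carries the same kind of 5′ hairpin as the ferritin chains. Its levels were 290, 277, 280 and 308 CPM in plasma-negative replicates 1 to 4 and 340, 383, 365 and 337 CPM in plasma-positive replicates 1 to 4. The groups did not overlap, which held in the higher direction for 3 of the 10 genes (Fth1, Ftl1 and Slc40a1) and for 5.68% of all tested genes (10.3% in either direction). None of the 10 was separated in the lower direction, where 4.59% of all tested genes were. The log2 change was 0.30 ± 0.09 (SE), or 1.24-fold, and it did not pass (edgeR, adjusted p = 0.152). DESeq2 called it with a change of 0.28 (adjusted p = 0.0452), and with the length and GC correction the change was 0.52 (edgeR, adjusted p = 0.0547). Slc40a1 has 9000 bases of merged exons, among the longest of the 10 genes, against 1340 for Ftl1.

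Among the import genes, Tfrc (ENSMUSG00000022797, chromosome 16, 32608920 to 32632794) encodes the transferrin receptor and carries the 3′ hairpins. It was low, at 14.1, 5.98, 8.97 and 7.74 CPM in plasma-negative replicates 1 to 4 and 6.6, 6.1, 7.97 and 12.3 CPM in plasma-positive replicates 1 to 4. Counts ranged from 23 to 318 per library. One library of each group, plasma-negative replicate 1 and plasma-positive replicate 4, was high, and the groups overlapped. Its log2 change was -0.16 ± 0.51 (SE; edgeR, adjusted p = 0.933), and it was 0.12 without plasma-negative replicate 1 and -0.0631 with the length and GC correction.

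Slc11a1 (ENSMUSG00000026177, chromosome 1, 74375195 to 74386062) encodes a metal transporter of the phagosome and lysosome membrane of macrophages, also known as Nramp1. In plasma-negative replicates 1 to 4 it stood at 310, 441, 364 and 374 CPM. In plasma-positive replicates 1 to 4 the values were 481, 467, 377 and 569 CPM. The groups overlapped, with plasma-positive replicate 3 below plasma-negative replicate 2. Its log2 change was 0.35 ± 0.14 (SE; edgeR, adjusted p = 0.289), and 0.17 with the length and GC correction (edgeR, adjusted p = 0.765).

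Slc11a2 (ENSMUSG00000023030, chromosome 15, 100387898 to 100425072) encodes the related divalent metal transporter DMT1, which moves iron out of endosomes. Plasma-negative replicates 1 to 4 had 41.8, 38.3, 36.8 and 30.3 CPM, and plasma-positive replicates 1 to 4 had 15.8, 35.1, 33.6 and 39.9 CPM. Apart from plasma-positive replicate 1 the values of the groups were interleaved. The log2 change of -0.24 had an SE of 0.30 (edgeR, adjusted p = 0.793) and was -0.03 without that library. The phagosomal transporter was the more abundant of the pair in every library, with a ratio of Slc11a1 to Slc11a2 on the RPKM scale from 12.7 to 52.1.

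Hmox1 (ENSMUSG00000005413, chromosome 8, 75093621 to 75100589) encodes haem oxygenase 1, the inducible enzyme that opens haem and frees its iron. It was the most variable of the 10 genes. Plasma-negative replicates 1 to 4 had 1, 0, 179 and 56 counts, and plasma-positive replicates 1 to 4 had 237, 196, 77 and 31. After scaling this was 0.0443, 0, 10.4 and 18.8 CPM against 26.1, 9.96, 3.91 and 3.46 CPM. Plasma-negative replicates 1 and 2 were thus under the floor of 3 counts, which corresponds to 0.133 and 0.189 CPM there and covers counting error only, while every plasma-positive library was above it. The log2 change of 0.61 had an SE of 1.40 (edgeR, adjusted p = 0.911), and its estimate was -0.31 without plasma-positive replicate 1 and 1.63 without plasma-negative replicate 4. Other fits gave larger estimates, which did not pass either, with 3.51 by limma-voom and 2.17 by limma on log2(RPKM + 0.1).

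The iron regulatory proteins are encoded by Aco1 and Ireb2. Aco1 (ENSMUSG00000028405, chromosome 4, 40143081 to 40198338) encodes a protein that serves as cytosolic aconitase while it holds an iron-sulfur cluster and as iron regulatory protein 1 without it. Its values were 17.6, 54.0, 38.2 and 29.6 CPM in plasma-negative replicates 1 to 4 and 34.8, 47.6, 24.6 and 36.4 CPM in plasma-positive replicates 1 to 4. The plasma-positive values all lay inside the plasma-negative range. Its log2 change was 0.04 ± 0.34 (SE; edgeR, adjusted p = 0.976), and its sign turned with library totals only (-0.08) and with the length and GC correction (-0.07).

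Ireb2 (ENSMUSG00000032293, chromosome 9, 54863789 to 54912530) encodes iron regulatory protein 2, which is degraded when iron is plentiful. It showed the lowest estimate of the 10, from 57.8, 34.7, 26.3 and 19.2 CPM in plasma-negative replicates 1 to 4 to 16.5, 24.1, 13 and 9.61 CPM in plasma-positive replicates 1 to 4. The groups overlapped by 1 library, since plasma-positive replicate 2 lay above plasma-negative replicate 4. The log2 change of -1.13 had an SE of 0.40 and did not pass (edgeR, adjusted p = 0.224). It was -0.76 without plasma-negative replicate 1, the highest library, and -0.85 with the length and GC correction, for a gene with 9479 bases of merged exons, the longest of the 10. The ratio of Aco1 to Ireb2, looked at after the values were seen, was 0.643, 3.28, 3.07 and 3.25 on the RPKM scale in plasma-negative replicates 1 to 4. In plasma-positive replicates 1 to 4 it was 4.44, 4.16, 3.99 and 7.99, with no overlap between the groups. Of all tested single genes 10.3% were separated in either direction, and the share among ratios of gene pairs was not computed. The ratio was not corrected for GC content.

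The order of the levels per exon length was Fth1, Ftl1, Slc11a1 and Slc40a1 in both groups, each without overlap with the next. In plasma-negative libraries their means were 359 ± 27.1, 215 ± 13.3, 73.4 ± 10.2 and 23.5 ± 1.52 RPKM, and in plasma-positive libraries 587 ± 35.1, 326 ± 11.9, 102 ± 15.2 and 31.6 ± 2.51 RPKM (SD, n = 4). The next gene was Aco1, at 5.65 ± 2.42 and 6.37 ± 1.73 RPKM, and it was separated from Slc40a1. Below it, Slc11a2, Hmox1, Ireb2, Ncoa4 and Tfrc had means between 1.06 and 4.97 RPKM, each neighbour in the order overlapping the next in both groups. The coefficient of variation of CPM was between 4.08% and 8.39% for Fth1, Ftl1 and Slc40a1 and between 97.4% and 124% for Hmox1. The RPKM means serve for the order within a group, not for the change between groups. By limma on log2(RPKM + 1) the median log2 change of all tested genes was 0.11, against 0.01 by edgeR. The change of Fth1 was 0.71 on that scale, against 0.58 by edgeR.

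Pathway genes outside the 10 were mostly not called. Of 95 listed genes with other roles in iron and haem handling, 76 were tested and 2 were called, both higher in plasma-positive microglia (2.63%, against 1.41% of all tested genes). Estimates were positive for 49 and negative for 27, where 50.4% of all tested genes had positive ones, and the median log2 change was 0.10 against 0.01 over all tested genes. The groups were separated in 8 of the 76 in the higher and in 2 in the lower direction, against 5.68% and 4.59% of all tested genes. The other 19 genes did not pass the filter on low counts, among them the hepcidin gene Hamp, mitochondrial ferritin Ftmt and the haemoglobin scavenger receptor Cd163, which were named after their values were seen.

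**Figure D4:**
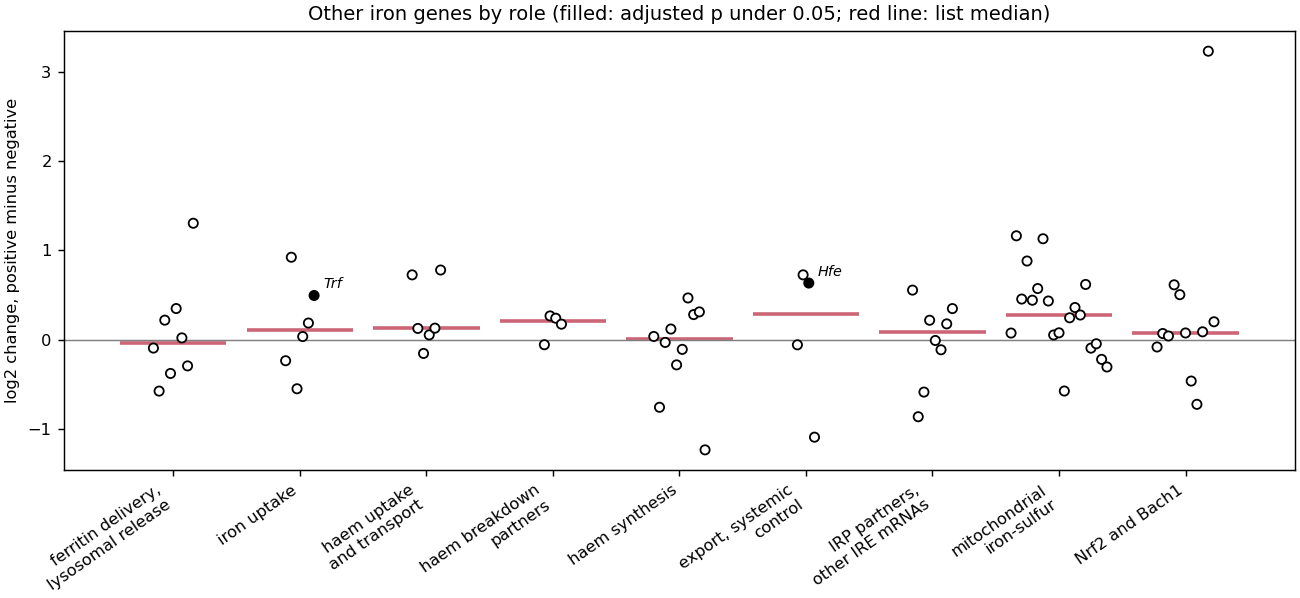
Log2 change, plasma-positive minus plasma-negative, of each of 76 tested iron and haem genes outside the 10, in 9 lists by role (horizontal axis). Filled points have an adjusted p under 0.05, and red lines mark the list medians. Trf and Hfe are the filled points, and the list medians lie between -0.04 and 0.29.

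In the list of iron uptake genes 1 of 6 tested members was called, in the higher direction, in which 0.844% of all tested genes were. Trf encodes transferrin, the iron carrier of plasma. It stood at 1746, 1546, 1601 and 1602 CPM in plasma-negative replicates 1 to 4 and at 2147, 2281, 2547 and 2184 CPM in plasma-positive replicates 1 to 4. The groups did not overlap, and the log2 change was 0.50 ± 0.07 (SE; edgeR, adjusted p = 0.00571). With each library left out in turn it passed 8 of 8 times. With the length and GC correction it did not pass (0.31, edgeR, adjusted p = 0.0832). Trf is also a gene of oligodendrocytes, whose marker levels are given above, and their part in its difference was not tested. Its RPKM, with a mean of 454 over all 8 libraries, was of the order of that of Fth1, in the same libraries in which Tfrc was near 1 RPKM. Slc22a17, a receptor for the iron carrier lipocalin 2, had a change of 0.92 with no overlap between groups (edgeR, adjusted p = 0.13), and DESeq2 called it with 0.90 (adjusted p = 0.0414). The gene of lipocalin 2 itself, Lcn2, named after its values were seen, did not pass the filter and reached 45.6 CPM in plasma-positive replicate 3, the library with the neutrophil genes.

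Among genes of iron export and systemic control 1 of 4 tested members was called, also higher (0.844% of all tested genes), and this call was lost whichever library was left out. Hfe, the gene mutated in hereditary haemochromatosis, whose product binds the transferrin receptor, had 156, 133, 135 and 139 CPM in plasma-negative replicates 1 to 4. In plasma-positive replicates 1 to 4 it had 189, 222, 204 and 260 CPM, so the groups did not overlap. The log2 change was 0.64 ± 0.13 (SE), or 1.55-fold (edgeR, adjusted p = 0.0376). With each library left out in turn it passed 0 of 8 times, with adjusted p between 0.0664 and 0.107 (edgeR) and changes between 0.54 and 0.70. The call also ended with library totals only (edgeR, adjusted p = 0.0806) and with the length and GC correction (edgeR, adjusted p = 0.123). App, the amyloid precursor, had a change of -0.06 (edgeR, adjusted p = 0.932).

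Of the 8 tested genes of ferritin delivery and lysosomal iron release 0 were called, near the share of 1.41% over all tested genes. Pcbp1 and Pcbp2, chaperones that hand iron to ferritin, had log2 changes of 0.35 and 0.02 (edgeR, adjusted p = 0.336 and 0.976). Herc2, named after its values were seen, encodes a ubiquitin ligase that acts on Ncoa4 protein. It had a change of -0.57 with no overlap between groups (edgeR, adjusted p = 0.062), and library totals only, limma-voom, DESeq2 and a stricter filter called it lower, as they did 1.23%, 0.844%, 2.84% and 1.04% of all tested genes.

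Of the haem genes 0 of 6 were called for uptake and transport, 0 of 4 for the partners of haem oxygenase 1 and 0 of 10 for synthesis, counts that are near the 1.41% of all tested genes. The constitutive haem oxygenase gene Hmox2, at 59.3 RPKM over all libraries, had a log2 change of 0.24, and Por, which supplies its electrons, 0.17 (edgeR, adjusted p = 0.569 and 0.732). With the length and GC correction Hmox2 and Por stood at 0.056 and -0.0020. Without it Slc46a1 and Pgrmc1 had 0.13 and 0.05 (edgeR, adjusted p = 0.675 and 0.901). Slc48a1, a haem transporter of the lysosome that was named after its values were seen, went from 35.6 ± 6.26 to 61.5 ± 8.93 CPM (SD, n = 4) with no overlap, and the change of 0.78 did not pass in edgeR (adjusted p = 0.103). DESeq2 and limma on both RPKM scales called it higher. Alas1, the rate-limiting enzyme of haem synthesis outside red cells, and Ppox had 0.12 and 0.28 (edgeR, adjusted p = 0.855 and 0.597).

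Partners of the iron regulatory proteins and further hairpin-bearing messages gave 0 called of 8 tested, also near that share. Sdhb and Skp1a had 0.18 and 0.35 (edgeR, adjusted p = 0.747 and 0.371). Of the mitochondrial iron-sulfur genes 0 of 19 were called, where 1.41% of all tested genes were. Positive estimates were found for 14 of the 19, against 50.4% of all tested genes, with a median of 0.28. The scaffold gene Iscu had 0.28 and Cisd1 0.46 (edgeR, adjusted p = 0.482 and 0.639), and they stood at 0.0364 and 0.18 after the length and GC correction.

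Nrf2 and Bach1 are transcription factors that activate and repress the ferritin and haem oxygenase 1 genes, and 0 of the 11 tested members of their list were called, against 1.41% of all tested genes. Nfe2l2, which encodes Nrf2, had a log2 change of 0.09 and the partner gene Mafg -0.46 (edgeR, adjusted p = 0.871 and 0.345). The largest estimate of the list was that of Srxn1, named after its values were seen, at 3.23 ± 1.24 (SE; edgeR, adjusted p = 0.26), from 0.422 ± 0.399 to 3.87 ± 2.49 CPM (SD, n = 4).

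The genes whose pattern over the 8 libraries was most like that of Fth1 were picked by the smallest mean absolute difference of gene-centred log2 CPM among 7530 others of at least 16 CPM. They were Atp5b (0.07), Npc2 (0.07), Ftl1 (0.07), Ctss (0.08) and Atp5a1 (0.08). For Ftl1 the nearest were Pld3, Atp5b, Ly6e, R74862 and Itm2c, with differences of 0.056 to 0.064, and Fth1 held place 15. These distances are descriptions of the same libraries and carry no test.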

How the data were processed

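The labels' protocols name an RNeasy Plus Micro extraction followed by Smart-seq2, which reads whole transcripts and has no molecular identifiers. The submitters' processing notes name bcl2fastq, Trim Galore, STAR, HTSeq and build mm10; versions, strand and the treatment of multi-mapping reads are not given in the sources used here. The authors' deposited count table holds whole-number counts per gene and library; its headers, per the file headers, name top-hit alignments. The authors' RPKM values scale reads by exon length and library size, per the file headers. The library size behind them differs from the total of gene counts. A further 16 columns of standard deviations were not used. Of 35583 gene identifiers, 35546 were in GENCODE M21. Mitochondrial genes held 0 counts. Nothing says that replicates came from separate animals, so p-values measure the spread between these libraries, which may be technical.

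Counts of all genes were tested with edgeR 4.0.16 (R 4.3.3; TMM factors, default filter, quasi-likelihood test of group, adjusted p under 0.05). CPM are counts scaled by TMM-adjusted totals, SE is taken as the log2 change over √F, and folds are the antilog of the fitted change. Totals ran from 2963094 to 21422738 counts, and the 3-count floor covers counting error only. The length and GC correction fitted a loess (span 0.3) per library to genes of at least 8 CPM, with GC from the longest transcript. On simulated counts of 18200 genes, 85 of 149 tested genes changed by 2 on the log2 scale were called, with 3 false calls. Smaller changes and shifts with length or GC content were not simulated, so this recovery does not apply to changes of the size of the ferritin chains. Alternatives used DESeq2 1.42.0, limma 3.58.1 on log2(RPKM + 1) and log2(RPKM + 0.1), other scalings and filters, thinning to the smallest total, and leaving out each library. The members and gene lists were chosen with earlier results of these data known. Named are the 10 members, called genes of each list and the 2 genes of each list with the highest RPKM; others are marked where they occur. Some genes of the lists are counted but not reported here by name.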

Additional observations from a re-analysis of the deposited data

Results flagged for a closer look

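Of 68 groups of 4 libraries examined, 4 held a library far from the other 3 of its group, where chance alone gives about 5%. Fth1 stood at 1916 CPM in plasma-negative replicate 2, against 1651 CPM in the next library. The ratio of Slc11a1 to Slc11a2 was 52.1 in plasma-positive replicate 1, against 24.5. The ratio of Aco1 to Ireb2 was 0.643 in plasma-negative replicate 1, against 3.07, and 7.99 in plasma-positive replicate 4, against 4.44.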

How the results depend on the processing

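Fth1 kept its direction in all 13 alternative fits and its call in 12, with log2 changes from 0.44 to 0.71; it was lost when the length and GC correction was combined with the replicate block (0.44, adjusted p = 0.0883). Ftl1 kept its direction in all 14 and its call in 10, and was not called with library totals only (0.36, adjusted p = 0.0802), with the block (0.48, adjusted p = 0.075), with the length and GC correction (0.20, adjusted p = 0.448) or with that correction and the block (0.21, adjusted p = 0.512). With the block Hfe was not called (adjusted p = 0.115). Slc40a1 was called by DESeq2 (0.28). Of the 10 genes 1 was called higher with library totals only, with the replicate block and with the length and GC correction, and 0 with that correction and the block. Aco1 turned to -0.0757 with library totals only and to -0.0654 with the length and GC correction. Deviations from the group means of libraries that share a number correlated by 0.0109 to 0.0315, so the numbers did not visibly pair them, and 3 of 8 libraries correlated best with their own number. With the replicate block 74 genes were called over the whole table, against 187 without it, 42 with the length and GC correction, 9 with both, 694 by DESeq2, 447 and 432 by limma on log2(RPKM + 1) and log2(RPKM + 0.1), and 66 to 203 with 1 library left out. The median change of all genes was -0.11 with library totals only, 0.11 with log2(RPKM + 1) and 0.16 with log2(RPKM + 0.1).

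Of the other iron and haem genes, 1 was called higher with library totals only and with the replicate block, 4 by DESeq2, and 0 with the length and GC correction, alone or with the block. Called lower was 1 with library totals only, a mean count of at least 50, DESeq2 and limma-voom. Small estimates that turned were those of Pcbp2 (-0.000333 with relative log expression factors, -0.10 with totals only, -0.0012 by DESeq2, -0.00803 by limma-voom, -0.005005 with the block, -0.0167 after thinning), Pgrmc1 (-0.0595 with totals only, -0.0042 and -0.0018 with the correction without and with the block), Slc46a1 (-0.0783 and -0.0759 with the correction), Sdhb (-0.0576 and -0.0317 with it), Por (-0.00203 with it), Nfe2l2 (-0.0269 with totals only) and App (0.0661 on log2(RPKM + 1), 0.0704 on log2(RPKM + 0.1), 0.26 and 0.27 with the correction). The mean ratio of Fth1 to Ftl1 was 4.33 and 4.66 from counts and, chosen after seeing the data, 4.51 and 4.85 from the lengths of the main transcripts.

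Leaving out each library in turn gave log2 changes from 0.56 to 0.65 for Fth1, 0.43 to 0.51 for Ftl1, 0.27 to 0.34 for Slc40a1, 0.25 to 0.44 for Slc11a1, -0.42 to 0.12 for Tfrc, -0.38 to -0.03 for Slc11a2, -0.31 to 1.63 for Hmox1, -0.19 to 0.34 for Aco1, -1.41 to -0.76 for Ireb2 and -0.71 to -0.19 for Ncoa4. Those fits called 1 to 2 of the 10 genes and 1 of the wider lists higher and 0 lower. The ranges for Pcbp2, App and Nfe2l2 were -0.12 to 0.15, -0.15 to 0.0666 and -0.0833 to 0.17. The ratio of the ferritin chains differed by 0.06 to 0.14 and the ferritin share by 0.074 to 0.088 percentage points. Tfrc and Srxn1 rest on few counts, and Hmox1 varied between libraries without following depth, with 1 count in the deepest library and 56 in the shallowest. Its estimate ran from 0.23 after thinning to 3.51 by limma-voom, with 2.55 with the replicate block.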
